A study of Mus musculus with 3 samples.

Results

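Mature migratory dendritic cells were sought among CD45+ leukocytes of KP1 tumors in single-cell RNA sequencing, and 71 of 71909 kept barcodes met the definition. A barcode was chosen by measured values: at least 5 unique molecular identifiers (UMIs, each a counted RNA molecule) of Ccr7, Fscn1 and Ccl22 together with at least 2 of these 3 genes detected, and at least 5 UMIs of the MHC class II genes H2-Aa and H2-Ab1. Barcodes with 5 or more UMIs of C1qa, C1qb and C1qc, 4 or more of Cd3d, Cd3e, Cd3g, Trac, Trbc1 and Trbc2, or 3 or more of Cd79a, Cd79b and Ms4a1 were left out, since these genes mark macrophages, T cells and B cells. The 71 cells were 20 of 22235 barcodes under mono-IL-10, 18 of 22707 under IL-10/2-Trikine and 33 of 26967 under the Trikine given together with anti-PD-1, called the combination here.

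KP1 is a mouse small-cell lung cancer line mutant for Rb and p53. Wild-type F1 mice of the strain B6129SF1/J carried subcutaneous tumors from 500000 injected cells in all 3 groups. Cytokine (3 µg of functional protein, intraperitoneal) was given on alternate days, first on day 7 and last on day 19. The combination also received 200 µg doses of an anti-PD-1 antibody, clone RMP1-14, first on day 7, then on days 11 and 15 and last on day 19, when all tumors were taken. The protocol text can be read as giving the antibody to every group, while titles and treatment labels list it in the combination only. The labels spell the first treatment Supermono-10 and call the cells T cells, although live CD45+ cells of every kind were sorted. Mono-IL-10 is a monomeric form of interleukin-10 that signals mainly through STAT3, and the Trikine joins it to a non-signaling IL-2 that brings in IL-2Rβ and adds STAT5. Each group was 1 library, and the sources used here do not state how many mice it held, so no difference between groups could be set against replicates. Intervals below are at the 95% level and cover counting error only.

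Conventional dendritic cells take up antigen in a tissue and, once matured, switch on CCR7, the receptor that follows lymphatic chemokines to the draining node. Fascin, the product of Fscn1, bundles actin in their long processes, and Ccl22 attracts T cells that carry CCR4. In tumors this state pairs costimulatory molecules for T cells with checkpoint ligands such as PD-L1 (Cd274), PD-L2 (Pdcd1lg2) and Cd200. Interleukin-10 is known for restraining dendritic cell maturation, and the receptor partner of PD-L1 and PD-L2 is the target of the antibody used here.

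The cells made up 0.0899% of kept barcodes under mono-IL-10 (exact binomial interval 0.055 to 0.139), 0.0793% under IL-10/2-Trikine (0.047 to 0.125) and 0.122% under the combination (0.0842 to 0.172). The ratio of shares was 0.881 for IL-10/2-Trikine over mono-IL-10 (0.466 to 1.67) and 1.54 for the combination over IL-10/2-Trikine (0.87 to 2.74). Both intervals included 1. Set against barcodes that passed the class II requirement and all 3 limits (1620, 1843 and 1568), the shares were 1.23%, 0.977% and 2.1%. On that denominator the combination stood at 2.15 times IL-10/2-Trikine (1.22 to 3.81), and IL-10/2-Trikine at 0.791 times mono-IL-10 (0.42 to 1.49).

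The limit on T cell UMIs refused different numbers of barcodes in the 3 libraries. Of the barcodes with enough Ccr7, Fscn1 and Ccl22 (100, 192 and 109), 17, 53 and 11 were refused by that limit alone. These refused barcodes held a median of 20134, 36406 and 35181 UMIs, against 8978, 6038 and 7445 in the members. Whether they held more than 1 cell was not tested. At least 10 of the 17 listed markers of mature dendritic cells outside the definition (Cacnb3, Samsn1, Il4i1, Nudt17, Socs2, Ccl5, Ccl17, Cd40, Relb, Birc3, Tmem123, Tbc1d4, Mreg, Apol7c, Cd200, Cd274 and Pdcd1lg2) were found in 8, 36 and 7 of the refused barcodes. A further 31, 84 and 56 barcodes fell short of the class II requirement, of which 5, 22 and 8 carried at least 10 of these markers. Past several limits at once were 29, 36 and 7, of which 18, 29 and 2 did. Dropping the T cell limit alone restores neither group. With the T cell limit dropped and at least 10 of those 17 markers required, there were 25, 54 and 37 cells. The shares then became 0.112% (0.0728 to 0.166), 0.238% (0.179 to 0.31) and 0.137% (0.0966 to 0.189), and the ratios became 2.12 (1.32 to 3.4) and 0.577 (0.38 to 0.876). This alternative changes 2 choices together. With the marker requirement alone and the T cell limit kept there were 17, 18 and 30 cells, and the ratios were 1.04 (0.534 to 2.01) and 1.4 (0.783 to 2.52), so that the first was already above 1. Both alternatives were chosen after seeing the data. Among barcodes classed as T cells by CD3 and receptor UMIs, 23 of 8111, 119 of 12922 and 119 of 12809 also carried at least 10 of the 17.

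**Figure D1:**
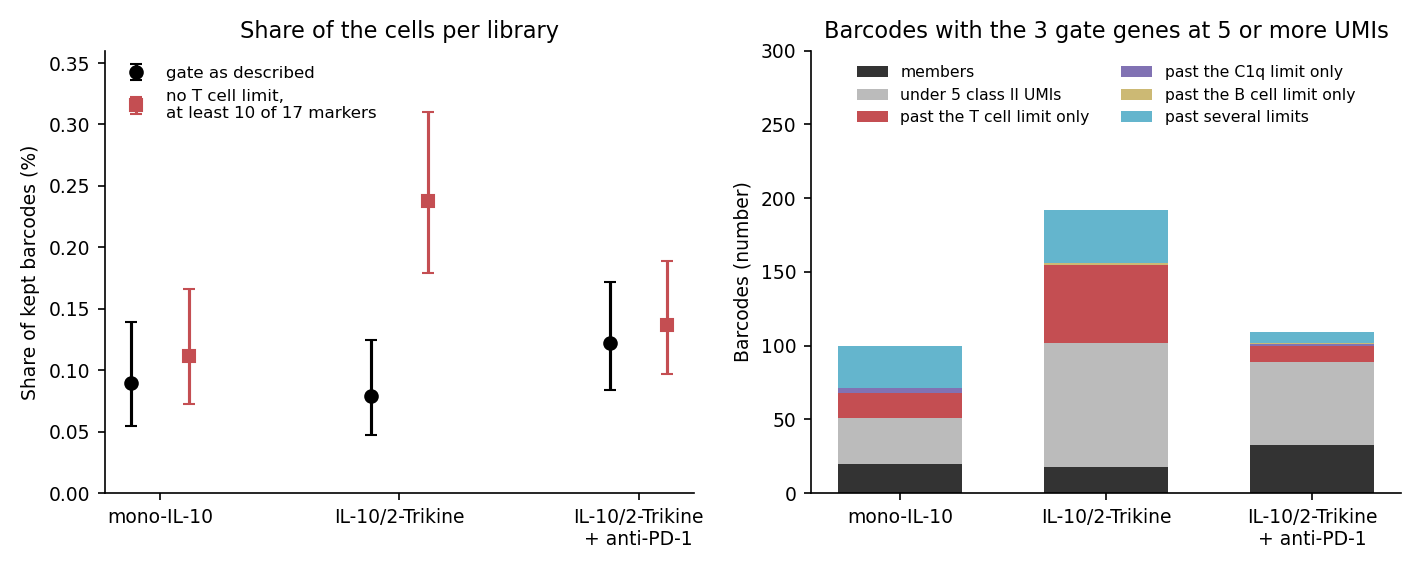
Left, share of kept barcodes (percent) called mature dendritic cells in each library, with exact binomial 95% intervals, under the definition used (black) and with the T cell limit replaced by a requirement for 10 of 17 markers (red). Right, number of barcodes with at least 5 UMIs and 2 detected genes of Ccr7, Fscn1 and Ccl22, by outcome: the 3 black intervals overlap, and the red part, refused for T cell UMIs alone, was 53 barcodes in IL-10/2-Trikine.

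The members held 197567, 107208 and 251656 UMIs in all, with a median of 2636, 2002 and 2453 detected genes per cell. The IL-10/2-Trikine pool was therefore the shallowest, and a gene with 1 UMI there stood at 9.33 counts per 1000000 UMIs (CPM). Mitochondrial UMIs had medians of 1.08%, 0.748% and 0.862%. Barcode sequences recurred between pairs of libraries in 137 to 180 kept barcodes. Of the members, 2 shared theirs with a kept barcode of another library that was not a member. The combination was 1 of the 2 libraries in both cases.

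Most members also carried the mature dendritic cell markers that the definition did not use. Members carried a median of 12.5, 13 and 12 of the 17 markers, against 4, 4 and 5 in immature conventional dendritic cells, 3 in C1q macrophages and 4 in T cells of every library. Every IL-10/2-Trikine member had at least 10, whereas 3 mono-IL-10 members and 3 combination members had fewer, down to 1 and 7. Since these markers are known to be expressed together with the chosen genes, this is a description and no separate test.

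Members lay well above the threshold on Ccr7, Fscn1 and Ccl22. Their medians were 48, 54.5 and 45 UMIs and the highest cells had 150, 77 and 148. The lowest members had 6, 7 and 7 UMIs under mono-IL-10, 19, 31 and 31 under IL-10/2-Trikine and 5, 6 and 9 under the combination. Just outside, with 3 or 4 UMIs and all other requirements met, stood only 2 barcodes, both of the combination. All 3 genes were detected in 8, 6 and 9 members. Ccr7 was found in every member, Fscn1 in 17 of 20, 18 of 18 and 28 of 33, and Ccl22 in 11, 6 and 14. The summed level of Ccr7 was 2374, 5354 and 4172 CPM, that of Fscn1 was 2895, 3442 and 1943 CPM, and that of Ccl22 was 263, 187 and 385 CPM. These 3 genes chose the cells, so their levels are given without comparison.

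A minority of members had UMIs of fewer than 2 of 3 further genes of maturation. Cacnb3 (a calcium channel subunit), Samsn1 (an adaptor protein) and Socs2 (a STAT5-induced inhibitor of cytokine signaling) are part of the mature dendritic cell signature, and 16, 18 and 28 members had UMIs of at least 2 of them. The other 4 mono-IL-10 members and 5 combination members held 31.9% and 19.2% of their library's member UMIs. Of these 9 cells, 5 still carried 10 or 11 of the 17 markers. One of these mono-IL-10 cells had 24672 UMIs, 93 of Lyz2, 40 of Igkc and 14 of Pax5, genes of myeloid and B cells, and was called a doublet. Another carried 8 UMIs of Chga, a neuroendocrine gene of the tumor, and 1 of the 17 markers. One more held 106 of the library's Ccl17 UMIs, 13 of Cd209a, a type 2 dendritic cell gene, and 20 of Naaa, a type 1 gene. Because such cells occurred in both other libraries and not under IL-10/2-Trikine, values without them are given beside many of the results below, an alternative chosen after seeing the data. The remaining 16, 18 and 28 cells are called core-positive.

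Genes of other cell types were low in the members, apart from single cells. The macrophage, T cell and B cell sums include genes used to leave barcodes out, so their low values were set in part by the definition. The 14 macrophage markers summed to 729, 103 and 219 CPM, against 12305 to 13762 CPM in C1q macrophages, and 1 mono-IL-10 member held 77.1% of that library's sum. Of the 14, 12, 7 and 11 had a UMI, and Trem2 had none in any library. The 14 T cell markers summed to 81, 131 and 119 CPM, against 6730 to 9017 CPM in T cells, and Cd4 was at 0 in every library. The 10 natural killer cell markers summed to 127, 131 and 250 CPM with Ncr1 and Klra8 at 0 throughout. The 10 B cell markers summed to 435, 74.6 and 15.9 CPM, with 72.1% of the first from 1 cell, and the 11 tumor markers to 152, 56 and 35.8 CPM, with 86.7% of the first from 1 cell. The 9 monocyte markers summed to 1088, 326 and 517 CPM, against 4024 to 5881 CPM in immature conventional dendritic cells, with 67%, 77.1% and 45.4% from 1 cell. The 9 plasmacytoid dendritic cell markers summed to 774, 485 and 560 CPM, less than the 1534 to 1656 CPM of immature cells, and neutrophil markers summed to 192, 74.6 and 155 CPM. Markers of ILC2 (111, 18.7 and 71.5 CPM), ILC3 (20.2, 46.6 and 31.8) and stroma (10.1, 0 and 15.9) were low in each library. Mast cell and basophil markers had no UMI in any member, and Cd207 of Langerhans cells and Siglech of plasmacytoid dendritic cells had none either.

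**Figure D2:**
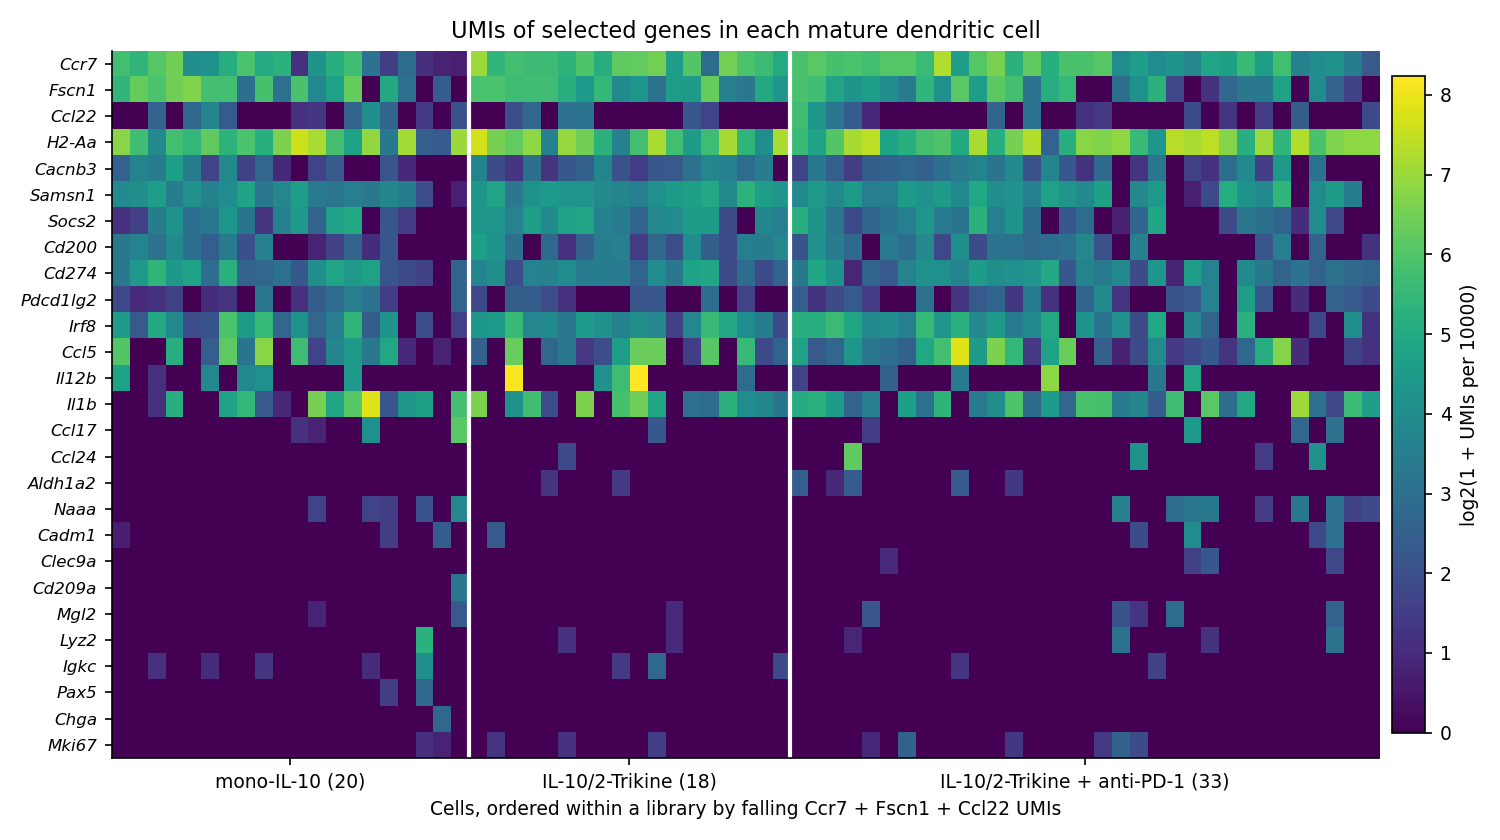
Each column is 1 of the 71 cells, grouped by library and ordered by falling Ccr7, Fscn1 and Ccl22 UMIs, and each line is a gene; color gives log2(1 + UMIs per 10000). Ccr7 is detected in every cell, Il12b is detected in 6, 5 and 6 of them, and Lyz2, Pax5 and Chga stand out in single mono-IL-10 cells at the right of that block.

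Members differed in many genes from immature conventional dendritic cells. The immature cells met the same limits but had fewer than 2 UMIs of the 3 chosen genes. They also had at least 2 UMIs of Flt3, Xcr1, Clec9a, Cd209a, Clec10a or Zbtb46. There were 163, 296 and 215 such immature cells. Because the members were selected on this contrast, its values are a description. Over 7476 genes measured in all 3 libraries, 5.52% were at least 2-fold higher in the members of every library and 6.78% were at least 2-fold lower. Of the 28 measured genes listed for maturation and migration, 25 were at least 2-fold higher in every library, with median log2 ratios of 3.10, 3.34 and 2.99 against -0.19, -0.19 and -0.35 over all measured genes.

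Cd63, a tetraspanin of late endosomes, was at 683, 1614 and 1403 CPM in members and at 9.55, 9.88 and 17.2 CPM in immature cells. Cd200, whose product restrains cells that carry its receptor, was at 364, 765 and 497 CPM against 6.57, 7.51 and 3.89 CPM. Socs2 was at 577, 1539 and 791 CPM against 11.3, 17.4 and 15 CPM. These 3 genes differed by more than 5 log2 units in every library. Il4i1, an enzyme that breaks down phenylalanine and tryptophan, was at 552, 961 and 779 CPM against 9.55, 15.4 and 28.9 CPM. Ly75, the antigen uptake receptor DEC-205, was at 916, 1502 and 966 CPM against 34, 47.4 and 32.2 CPM. The other genes picked by the same rule were Cacnb3, Zmynd15, Mreg, Il12b, Adgrg6, Slc22a23, Tmcc3, Arhgap28, Serpinb6b and Cd1d1, with a smallest log2 ratio over the libraries between 4.08 and 5.97.

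Genes of monocytes and of tissue entry were lower in members. The immature set itself carried 4361, 4024 and 5881 CPM of the 9 monocyte markers, against 1325, 2416 and 2083 CPM in C1q macrophages. Whether it included monocytes was not tested. Ccr2, the receptor that draws monocytes and their kin into tissue, was at 60.7, 0 and 15.9 CPM against 573, 550 and 509 CPM in immature cells. Alox5ap, needed for leukotriene synthesis, was at 127, 9.33 and 111 CPM against 1020, 970 and 858 CPM. Plaur, Cxcl2, Tgfbi, Fn1, Zfp36l2, P2ry14 and Cd14 were also among the 10 lowest. Of the 17 measured chemokine and adhesion receptors, 9 were at least 2-fold lower in every library and 1 was higher.

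Nuclear factor kappa B genes followed the maturation genes. Of 24 measured, 14 were at least 2-fold higher in members of every library, none was lower, and the medians were 1.53, 1.45 and 1.33. Relb, a subunit of the pathway's non-canonical arm, was at 653, 1026 and 993 CPM against 80.6, 101 and 103 CPM. Of 17 JAK, STAT and SOCS genes 6 were higher in all 3 libraries, among them Stat4 at 906, 2164 and 1291 CPM against 80, 158 and 147 CPM. Of 15 genes of costimulation and activating cytokines 5 were higher and 2 lower. Of 14 inhibitory and regulatory genes 5 were higher and 4 lower, beside 5.52% and 6.78% of all genes. Of the genes of MHC class I presentation 3 of 19 were higher and 1 was lower, and of class II presentation none of 16 was higher and 3 were lower.

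Several genes that define the conventional subsets were low. The immature cells were chosen in part on Xcr1, Clec9a, Cd209a and Clec10a, which are in these lists. Part of this contrast was thus set by that choice. Of 13 measured genes of type 1 dendritic cells 6 were at least 2-fold lower in every library, and of 10 genes of type 2 cells 5 were lower and 1 was higher. Xcr1, the type 1 chemokine receptor, had no UMI in any member. Clec9a had 0, 0 and 8 UMIs. Naaa was at 172, 0 and 234 CPM against 1225, 939 and 715 CPM in immature cells. Irf8, which type 1 cells need for their development, was an exception at 1195, 1716 and 1665 CPM against 1219, 910 and 890 CPM. Another was Batf3 of the type 1 list, at 147, 177 and 139 CPM against 86.6, 73.9 and 68.4 CPM.

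**Figure D3:**
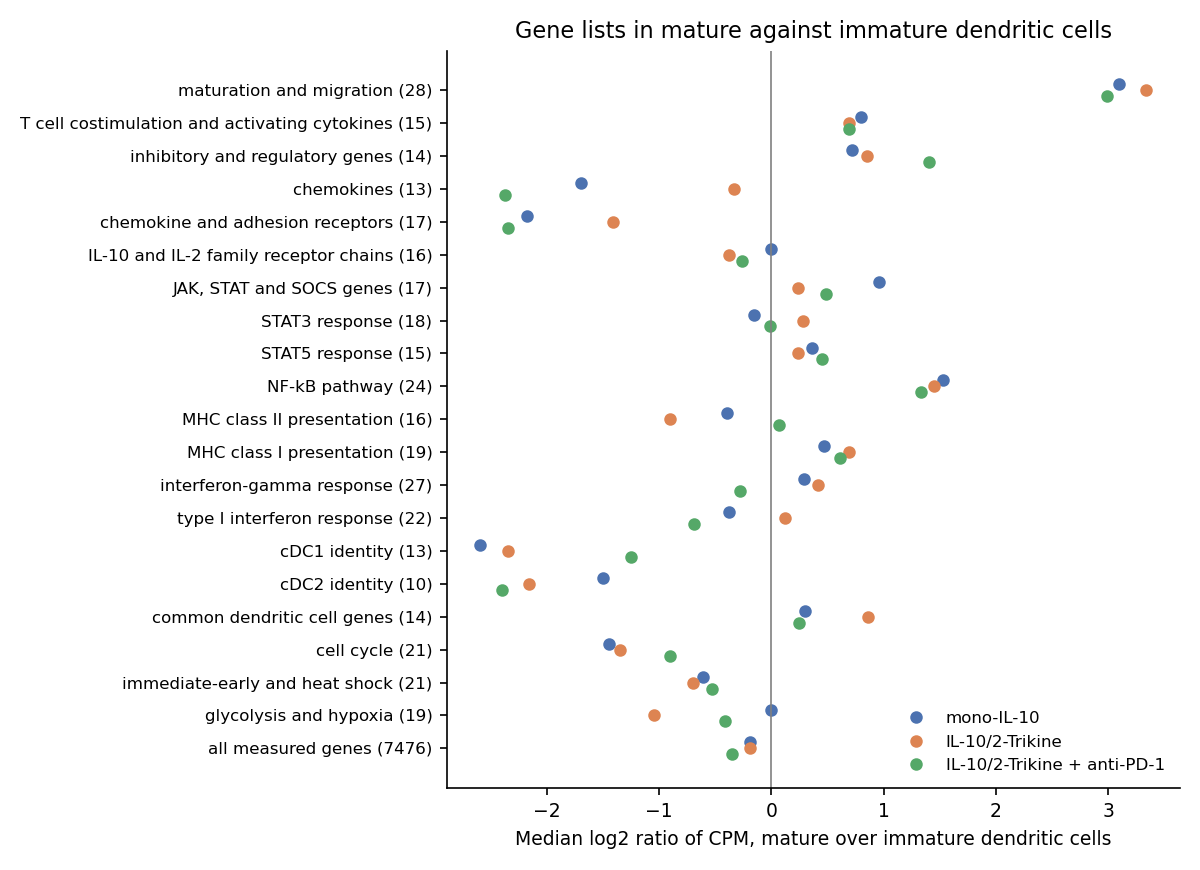
Median log2 ratio of CPM, members over immature conventional dendritic cells, for each gene list (measured genes in parentheses) and library. Maturation and migration genes stand between 2.99 and 3.34 and NF-kB genes between 1.33 and 1.53, while the genes of both conventional subsets and the chemokine and adhesion receptors lie at -1.25 or lower. The members were selected on this contrast, and the immature cells in part on Xcr1, Clec9a, Cd209a and Clec10a of the subset lists.

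Traces of the conventional subsets were sought in the members, although a trace alone did not assign a cell to 1 subset. After thinning each cell to 2000 UMIs, a UMI of Xcr1, Clec9a, Cadm1, Naaa or Tlr3 (type 1 side) was found in 3 of 19 mono-IL-10 members (15.8%, 3.38 to 39.6), 1 of 18 IL-10/2-Trikine members (5.56%, 0.141 to 27.3) and 7 of 32 combination members (21.9%, 9.28 to 40). The same share in T cells, which should lack these genes, was 4.62%, 1.95% and 4.21%, at median depths of 4314, 5891 and 4526 UMIs before thinning. The intervals of mono-IL-10 and IL-10/2-Trikine included the T cell share, so neither stood above background at this depth. Before thinning the shares of members were 35%, 5.56% and 36.4%. In immature cells they were 78.1%, 72.1% and 59.6% after thinning, but those cells were chosen in part on Xcr1 and Clec9a. C1q macrophages held 692, 520 and 658 CPM of Cadm1, above the 243, 199 and 147 CPM of immature cells. Before thinning, the mono-IL-10 member with Chga held 6 of that library's 8 Cadm1 UMIs. The mono-IL-10 member called a doublet held 8 Naaa UMIs.

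A UMI of Cd209a, Sirpa, Itgam, Clec10a or Mgl2 (type 2 side) was found in 26.3% (9.15 to 51.2), 22.2% (6.41 to 47.6) and 40.6% (23.7 to 59.4) of thinned members, against 4.18%, 3.37% and 3.73% of T cells. Before thinning these shares of members were 75%, 38.9% and 57.6%. Neither side was seen in 63.2%, 72.2% and 53.1% of thinned members, against 4.38%, 5.44% and 10.6% of immature cells, which were chosen in part on 4 of these genes (Xcr1, Clec9a, Cd209a and Clec10a). Both sides were seen in 5.26%, 0% and 15.6% of thinned members and in 41.2%, 43.9% and 38% of immature cells. The 2 gene sets thus did not separate the subsets even in immature cells. Intervals overlapped between all 3 libraries for each share of members. A single combination cell with 15297 UMIs carried 23 of that library's 29 Cadm1 UMIs.

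Turning to the treatments, the first comparison sets the Trikine, with its added IL-2Rβ arm, against mono-IL-10. Genes with at least 20 UMIs over the pair of libraries were measured, and the CPM of summed member UMIs were compared, with an exact conditional binomial interval for each ratio. Over 2687 genes, 6.66% were at least 2-fold higher under IL-10/2-Trikine than under mono-IL-10 and 14.5% at least 2-fold lower, with a median log2 ratio of -0.08. Among core-positive cells 125 of 2076 genes were higher and 138 lower, which is 6.02% and 6.65%, so that the larger number on the lower side was mostly lost.

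Maturation and migration genes stood higher under IL-10/2-Trikine in the pooled sums. Of 32 measured, 27 had a ratio above 1, 5 were at least 2-fold higher and 1 at least 2-fold lower. Over all 2687 measured genes, 1212 had a ratio above 1, 6.66% were at least 2-fold higher and 14.5% lower. The list's median log2 ratio was 0.62, and it was 0.18 among core-positive cells, a choice that used 2 genes of the list. Fabp5, a fatty acid binding protein, was at 1979, 5932 and 5587 CPM in mono-IL-10, IL-10/2-Trikine and the combination. Its log2 ratio was 1.58 in the first comparison (1.40 to 1.77) and 1.13 among core-positive cells. Cd63 was at 683, 1614 and 1403 CPM with a log2 ratio of 1.24 (0.91 to 1.58), and 0.82 among core-positive cells. In both genes the combination stood with IL-10/2-Trikine and apart from mono-IL-10. Serpinb9, an inhibitor of granzyme B, had the same order at 531, 1082 and 1101 CPM, with a log2 ratio of 1.03 (0.63 to 1.42), and 0.88 among core-positive cells. Nudt17 had 6, 14 and 26 UMIs and Rap2a, a small GTPase, had 26, 33 and 83. Apol7c, the 1 gene of the list that was lower, had 30, 5 and 29 UMIs and a log2 ratio of -1.70 (-3.43 to -0.32), but 93.3% of the first came from 1 cell. Among core-positive cells 3 of 31 were higher and 1 lower, beside 6.02% and 6.65% of all genes measured there. Under the combination the list was near level with IL-10/2-Trikine: of 32 measured genes 1 was at least 2-fold higher and 2 were lower, beside 10.6% and 5.07% of all measured genes in this second comparison, with a median of -0.21. The lower genes were Tbc1d4, which controls glucose transporter traffic, and Tmem150c, which was at -0.82 (-2.01 to 0.39) among core-positive cells. Tbc1d4 was at 1346, 2267 and 830 CPM, with a second log2 ratio of -1.45 (-1.72 to -1.18) and -1.32 among core-positive cells.

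The receptors that the 2 cytokines engage were seen at low counts. Il10ra, the chain that binds interleukin-10, had 22, 10 and 16 UMIs, or 111, 93.3 and 63.6 CPM. Il10rb, its partner, had 13, 4 and 20 UMIs, or 65.8, 37.3 and 79.5 CPM. The intervals of both comparisons included equal levels for both genes. Il2rb, the IL-2Rβ chain that the Trikine brings in, had 0, 2 and 3 UMIs, too few for a comparison. Il2rg, the common gamma chain, was at 202, 215 and 151 CPM. Il2ra, the chain that raises affinity for IL-2 and is itself induced by STAT5, had 11, 25 and 20 UMIs in 4, 11 and 8 cells. It stood at 55.7, 233 and 79.5 CPM, with log2 ratios of 2.07 (0.99 to 3.24) and -1.55 (-2.48 to -0.65), and of 1.51 and -1.25 among core-positive cells. Il7r, the interleukin-7 receptor chain, was at 263, 662 and 445 CPM, with a log2 ratio of 1.33 in the first comparison (0.79 to 1.88) and 0.80 among core-positive cells. Both were thus highest under IL-10/2-Trikine. For Il7r the second log2 ratio among core-positive cells was -0.28 (-0.72 to 0.17), an interval that included equal levels. Ifngr1, which binds interferon gamma, had the opposite pattern at 20, 2 and 24 UMIs, with log2 ratios of -2.44 (-5.58 to -0.40) and 2.35 (0.34 to 5.48). Among core-positive cells these were -2.13 (-5.35 to 0.06) and 2.32 (0.27 to 5.47), so that the first interval included equal levels. Of 14 measured receptor chains in the first comparison 2 were at least 2-fold higher and 1 was lower. The list's median was 0.21, and over all genes 6.66% were higher and 14.5% lower. In the second, 3 of 16 were higher and 1 was lower, beside 10.6% and 5.07% of all genes, with a median of 0.31. Among core-positive cells 1 of 12 was higher and 1 lower in the first comparison, beside 6.02% and 6.65% of all genes there. In the second 3 of 15 were higher and 1 lower, beside 8.23% and 4.55%. One of those higher was Csf2rb, a chain of the GM-CSF receptor, at 283, 177 and 413 CPM with a log2 ratio of 1.22 (0.51 to 2.01).

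Among JAK, STAT and SOCS genes, Socs2 and Stat4 were highest under IL-10/2-Trikine. Socs2 was at 577 CPM in mono-IL-10 (114 UMIs in 16 cells), 1539 in IL-10/2-Trikine (165 in 17) and 791 in the combination (199 in 26). Its log2 ratios were 1.42 (1.06 to 1.77) and -0.96 (-1.27 to -0.65), and 0.86 and -0.67 among core-positive cells, where Socs2 was one of the genes used to choose. Stat4, which carries interleukin-12 signals, was at 906, 2164 and 1291 CPM with log2 ratios of 1.26 (0.97 to 1.55) and -0.74 (-0.99 to -0.50), and 0.88 and -0.48 among core-positive cells. Stat3 was at 759, 1073 and 747 CPM, with a first log2 ratio of 0.50 that was 0.06 among core-positive cells. Stat5a, Stat5b and Stat6 were each lowest under IL-10/2-Trikine at 93.3, 46.6 and 37.3 CPM, with intervals that included equal levels. Socs1 had 33, 7 and 27 UMIs and a first log2 ratio of -1.36 (-2.78 to -0.15). Of 13 measured genes 2 were at least 2-fold higher and 3 lower in the first comparison, with a median of 0.33. In the second, 1 of 14 was higher (Ptpn6, a phosphatase that dampens receptor signals) and none lower, with a median of 0.21. Among core-positive cells none of 11 was higher and 2 were lower in the first comparison, and the medians were 0.06 and -0.26. For all genes over all members the shares were 6.66% higher and 14.5% lower in the first comparison, and 10.6% and 5.07% in the second. Over core-positive cells they were 6.02% and 6.65%, then 8.23% and 4.55%.

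Targets of the 2 STAT factors, in lists taken from general knowledge, were split between higher and lower. Of 12 measured STAT3 response genes 3 were at least 2-fold higher under IL-10/2-Trikine and 2 lower, with a median of 0.26. Those higher were Il1rn, Etv3 and Zfp36, and those lower were Bcl3 and Cebpb. Il1rn, which encodes the interleukin-1 receptor antagonist, had 24, 41 and 65 UMIs, and 62.5% of the first came from 1 cell. Its first log2 ratio among core-positive cells was 3.10 (1.86 to 4.63), from 6 and 41 UMIs. Zfp36, which destabilizes cytokine messages, was at 734, 1614 and 890 CPM. The first log2 ratios of Zfp36 and Etv3, both 1.14, were 0.82 and 0.85 among core-positive cells and thus under 2-fold. Cebpb, a transcription factor of myeloid cells, had 40, 2 and 17 UMIs, and 77.5% of the first came from 1 cell. Of its mono-IL-10 UMIs 97.5% lay outside the core-positive set, and its first log2 ratio was -3.44 (-6.53 to -1.49) over all members and 1.33 (-2.94 to 7.21) within that set. Of 10 STAT5 response genes 3 were higher (Socs2, Il2ra and Tnfrsf4) and 2 lower (Ccl17 and Tnfrsf9), with a median of 0.18. The counts of both lists stand beside 6.66% of all genes higher and 14.5% lower in this first comparison. Ccl17 had 123, 2 and 41 UMIs, of which 98.4% of the first were outside the core-positive set and 75.6% of the last were in 1 cell. Its first log2 ratio was 0.33 (-3.46 to 4.11) within the set. Among core-positive cells 1 of 10 STAT3 response genes was higher and 1 lower, and of 9 STAT5 response genes 2 were higher and 1 lower. All genes measured there gave 6.02% higher and 6.65% lower. Tnfrsf4 encodes OX40 and had 7, 26 and 26 UMIs. Tnfrsf9 encodes 4-1BB and had 21, 2 and 12 UMIs. In the second comparison 2 of 12 STAT3 response genes were higher and none lower (median 0.04), and 2 of 11 STAT5 response genes were higher and 2 lower (median 0.10), beside 10.6% and 5.07% of all genes. Socs2, Il2ra and Tnfrsf4 thus stood highest under IL-10/2-Trikine while the lists as a whole did not, and lists of this length give counts of few genes.

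Nuclear factor kappa B genes differed little between libraries. Of 22 measured in the first comparison 1 was at least 2-fold higher and 1 lower, with a median of 0.37, and of 23 in the second 1 was higher and 1 lower, with a median of -0.20. Among core-positive cells 1 of 20 was higher and none lower, then 1 of 21 higher and 1 lower. Over all genes and members the shares were 6.66% higher and 14.5% lower, then 10.6% and 5.07%. In core-positive cells they were 6.02% and 6.65%, then 8.23% and 4.55%. Birc2, which restrains the non-canonical arm, was at 400, 1035 and 366 CPM, with log2 ratios of 1.37 (0.94 to 1.81) and -1.50 (-1.92 to -1.09), and 0.95 and -1.28 among core-positive cells. One IL-10/2-Trikine cell held 29.7% of its Birc2 UMIs. Bcl3 was the gene on the other side in both, at 24, 4 and 42 UMIs. Its log2 ratios were -1.70 (-3.69 to -0.16) and 2.16 (0.70 to 4.10), and -1.48 (-3.54 to 0.19) and 1.88 (0.37 to 3.86) among core-positive cells.

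**Figure D4:**
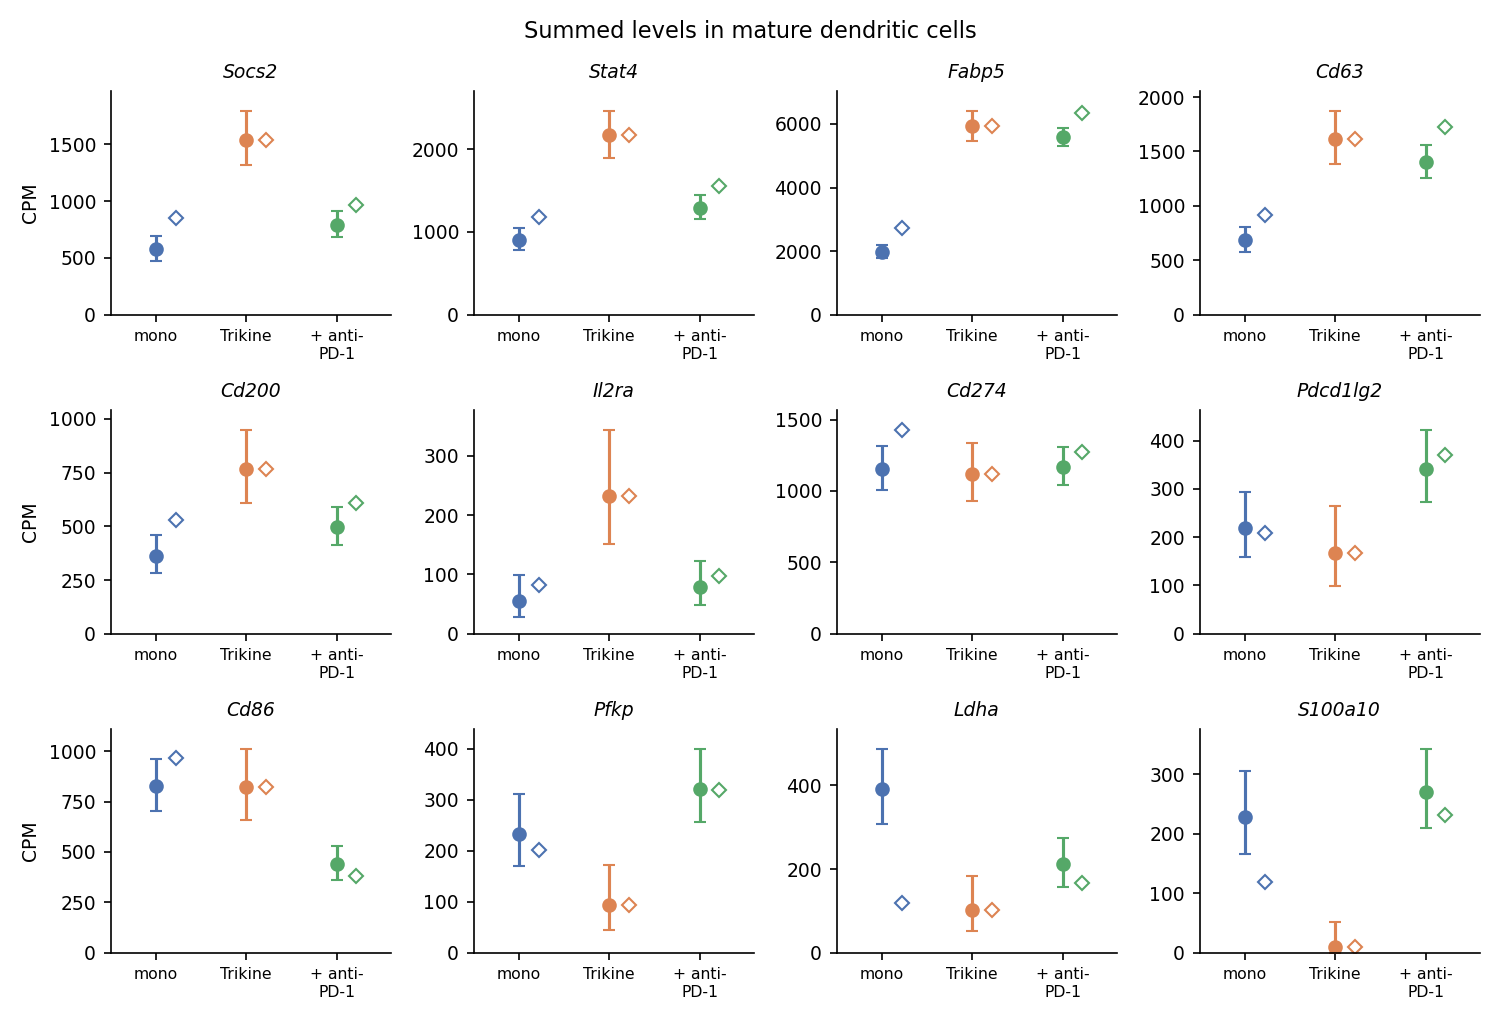
CPM of 12 genes over the summed UMIs of members in each library (filled points, with exact Poisson 95% intervals for the count) and over core-positive cells only (open diamonds). Socs2, Stat4, Cd200 and Il2ra are highest under IL-10/2-Trikine, Cd274 stands between 1119 and 1168 CPM in all members, and the Ldha value of mono-IL-10, 390 CPM in all members, is 119 CPM among core-positive cells, near the 103 CPM of IL-10/2-Trikine.

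Of the checkpoint ligands, Cd274 stood at close values in the 3 libraries. It was found in 19 of 20, 18 of 18 and 32 of 33 members, at 1154, 1119 and 1168 CPM, with log2 ratios of -0.04 (-0.38 to 0.28) and 0.06 (-0.25 to 0.38). Among core-positive cells the first was -0.35 (-0.69 to -0.01) and the second 0.19 (-0.13 to 0.51). Immature cells had 222, 220 and 308 CPM. After thinning to 2000 UMIs, 78.9%, 77.8% and 78.1% of members had a Cd274 UMI, against 29.4%, 28.2% and 34.6% of immature cells and 18.5%, 14.8% and 20.3% of T cells. Pdcd1lg2 was at 218, 168 and 342 CPM, and the combination exceeded IL-10/2-Trikine by a log2 ratio of 1.03 (0.28 to 1.85), or 1.13 among core-positive cells. Its thinned shares were 42.1% (20.3 to 66.5), 27.8% (9.69 to 53.5) and 56.2% (37.7 to 73.6), against 7.73%, 14.1% and 15.8% of T cells. The intervals of the members overlap. Cd200 was highest under IL-10/2-Trikine at 364, 765 and 497 CPM, with log2 ratios of 1.07 (0.60 to 1.55) and -0.62 (-1.04 to -0.20). Among core-positive cells these became 0.53 (0.06 to 1.01) and -0.33 (-0.74 to 0.09), so that the first was under 2-fold and the second interval included equal levels. Aldh1a2, which makes retinoic acid, had 0, 2 and 14 UMIs. Il10 was not among the 9 measured genes of this list, of which 3 were at least 2-fold higher and none lower under IL-10/2-Trikine, with a median of -0.04. Those were Cd200, Il1rn and Ebi3, a subunit of interleukin-27 and interleukin-35 with 7, 16 and 15 UMIs. Under the combination 1 was higher (Pdcd1lg2) and 1 lower (Ebi3) than under IL-10/2-Trikine, with a median of 0.06. Among core-positive cells 2 of 8 were higher and none lower in the first comparison. All measured genes over all members gave 6.66% higher and 14.5% lower in the first comparison, and 10.6% and 5.07% in the second. Over core-positive cells the first comparison gave 6.02% and 6.65%.

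Costimulatory genes gave a mixed picture. Cd40, the receptor for T cell help, was at 349, 373 and 409 CPM. Cd80 was at 491, 280 and 338 CPM, with a first log2 ratio of -0.81 (-1.45 to -0.21), and 1 mono-IL-10 cell held 39.2% of that library's Cd80 UMIs. Cd86, the other CD28 ligand, was at 825, 821 and 441 CPM, and the combination was below IL-10/2-Trikine by a log2 ratio of -0.90 (-1.31 to -0.48), or -1.12 among core-positive cells. Its thinned shares of 52.6%, 66.7% and 31.2% were also lowest in the combination, with overlapping intervals (28.9 to 75.6, 41 to 86.7 and 16.1 to 50). The Cd86 shares of immature cells were 49.4%, 50.3% and 44.7%, so members were not above them in the combination. Over the 11 measured genes the medians were -0.01 and -0.11, with 2 at least 2-fold higher and 1 lower in the first comparison and 0 higher and 2 lower in the second. Among core-positive cells 2 of 11 were higher and 2 lower, then 0 higher and 3 lower. Shares of all genes over all members were 6.66% higher and 14.5% lower, then 10.6% and 5.07%. Over core-positive cells they were 6.02% and 6.65%, then 8.23% and 4.55%.

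Interleukin-12 transcripts were concentrated in a few cells. Il12b, which encodes the p40 subunit, had 84, 416 and 152 UMIs, or 425, 3880 and 604 CPM, but only 6, 5 and 6 members held any. A single member supplied 50%, 47.4% and 59.2% of each sum. The 5 IL-10/2-Trikine cells held 197, 172, 32, 12 and 3 UMIs, and the highest cells of the other libraries held 42 and 90. After thinning, 21.1% (6.05 to 45.6), 27.8% (9.69 to 53.5) and 12.5% (3.51 to 29) of members had a UMI, against at most 0.0585% of T cells. The sums differed by log2 ratios of 3.19 (2.85 to 3.55) and -2.68 (-2.96 to -2.41), with intervals that take no account of the few cells. The shares of cells with a UMI had overlapping intervals.

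Several chemokine sums also rested on single cells. All 51 Ccl4 UMIs of IL-10/2-Trikine were in 1 cell. Of the 123 Ccl17 UMIs of mono-IL-10, 86.2% were in 1 cell that was not core-positive. In the combination 75.6% of 41 Ccl17 UMIs and 80.2% of 106 Ccl24 UMIs were each in 1 cell. Ccl5, which attracts T cells, was found in 14, 14 and 30 cells at 1726, 2155 and 2011 CPM, with 30.2%, 23.8% and 33.6% of the UMIs from 1 cell. T cells express it abundantly, and a part of free RNA in these counts was not tested. After thinning, 47.4%, 66.7% and 71.9% of members had a Ccl5 UMI, against 9.38%, 12.6% and 26% of immature cells. Cxcl16, the ligand of CXCR6, was in 17, 17 and 29 cells at 623, 597 and 727 CPM. Neither Ccl5 nor Cxcl16 was 2-fold apart between libraries. Gpr183, the oxysterol receptor that guides dendritic cells within lymphoid tissue, was at 359, 1129 and 366 CPM, with log2 ratios of 1.65 (1.22 to 2.09) and -1.63 (-2.03 to -1.22), and of 1.12 and -1.47 among core-positive cells. It was the 1 gene past 2-fold among 4 and 5 measured chemokine and adhesion receptors. Of 7 measured chemokines 1 was higher and 3 lower (Ccl17, Cxcl10 and Cxcl11) in the first comparison (median -0.06), beside 6.66% and 14.5% of all genes. Of 8 in the second 3 were higher and 1 lower (median 0.51), beside 10.6% and 5.07% of all genes. None of the 3 lower calls held among core-positive cells. There the first log2 ratios of Ccl17 and Cxcl11 were 0.33 and 0.06 (-1.99 to 2.04), and 87.8% of the mono-IL-10 UMIs of Cxcl11 lay outside that set. Cxcl9, another ligand of CXCR3, had 83, 49 and 147 UMIs, and its first log2 ratio went from 0.12 (-0.42 to 0.65) to 1.94 among core-positive cells, where its interval left out equal levels, with 80.7% of the mono-IL-10 UMIs outside the set. Of 4 chemokines measured among core-positive cells 2 were higher and none lower in the first comparison, beside 6.02% and 6.65% of all genes.

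Antigen presentation differed at the level of single genes. H2-Eb1, a class II chain, was at 5477, 5615 and 7530 CPM and Cd74, the invariant chain, at 8559, 7723 and 11126 CPM. Ciita, the master regulator of class II transcription, had 34, 2 and 20 UMIs in 7, 1 and 9 cells, and H2-DMb1, which helps load peptides, had 24, 2 and 38 in 5, 2 and 12 cells. Their first log2 ratios were -3.21 (-6.31 to -1.24) and -2.70 (-5.83 to -0.69). Both thus had a few UMIs at most among IL-10/2-Trikine members. In the second comparison their log2 ratios were 2.09 (0.05 to 5.23) and 3.02 (1.06 to 6.11), and 0.88 and 1.66 among core-positive cells, where the intervals included equal levels. Of 12 measured class II genes these 2 were at least 2-fold lower and none higher in the first comparison (median -0.04), beside 14.5% of all genes lower. In the second 3 were higher and none lower (median 0.38), beside 10.6% and 5.07% of all genes. Among core-positive cells 1 of 11 was lower in the first comparison, beside 6.65% of all genes there. In the second none of 10 was higher and 1 was lower, beside 8.23% and 4.55%. Of 19 class I genes none was 2-fold apart in the first comparison (median 0.28) and 1, H2-M2, was lower in the second (median -0.02). H2-M2 had 33, 28 and 14 UMIs in 3, 7 and 4 cells.

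Over all members, genes of glycolysis and hypoxia were, of the 20 lists, the one with the most genes 2-fold apart in both comparisons. Of 12 measured, 6 were at least 2-fold lower and 1 was higher under IL-10/2-Trikine than under mono-IL-10, beside 14.5% and 6.66% of all genes, with a median of -1.13. The gene on the higher side was Ndrg1, which hypoxia induces, at 27, 31 and 83 UMIs. Ldha, which makes lactate, was at 390, 103 and 211 CPM, with a first log2 ratio of -1.93 (-2.99 to -1.01). The 4 mono-IL-10 members outside the core-positive set held 79.2% of that library's Ldha UMIs, and without them its log2 ratio was -0.21. Tpi1, Pgk1 and Pgam1, with first log2 ratios of -2.02, -1.53 and -1.79, were at -0.48, -0.99 and 0.01 among core-positive cells. The list's median among core-positive cells was -0.43, with 1 of 9 measured genes higher and 1 lower, beside 6.02% and 6.65% of all genes. Other lists then had more genes 2-fold apart, such as the interferon gamma response with 3 of 14 higher and 2 lower. Eno1 had 27, 1 and 23 UMIs and Pfkp, which commits glucose to glycolysis, had 46, 10 and 81, with first log2 ratios of -3.87 and -1.32 that were -3.84 and -1.11 among core-positive cells. The list's lower values thus differed in how far they rested on the cells outside the core-positive set.

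By rule, the 12 genes with the highest and the 12 with the lowest ratio were also listed, among genes with at least 50 UMIs, found in 10 or more members of the higher library, with no member holding over 20% of its UMIs and an interval of the ratio that left out 1. Higher under IL-10/2-Trikine were Specc1, Epb41, Mpp7, Nostrin, Neat1, Mbtd1, Adgrg6, Mxi1, Fabp5, Cmtr1, Kmt2e and Tmtc2, with log2 ratios from 2.58 down to 1.45. Specc1, a cytoskeletal adaptor, was at 187, 1119 and 751 CPM, and Epb41, which links actin to the membrane, at 127, 746 and 413 CPM. Neat1, a nuclear long noncoding RNA, was at 147, 569 and 389 CPM. In all 3 genes the combination lay between the other libraries. Among the 8 and 6 members with all 3 of the chosen genes, the Specc1 log2 ratio was -0.42. Lower were Ptbp3, Laptm5, Atp5g2, Cyrib, Dnajc10, S100a11, Purb, Ythdc1, Hnrnpc, Ube2d2a, S100a4 and Sec61g, with log2 ratios from -1.73 to -0.81. Laptm5, a lysosomal membrane protein of leukocytes, was at 602, 224 and 536 CPM, with -1.43 (-2.13 to -0.79) and -1.26 among core-positive cells. Cyrib, which restrains Rac1, was at 952, 392 and 811 CPM, with -1.28 (-1.80 to -0.79) and -1.33. Sec61g, Purb and Ythdc1 went from -0.81, -0.91 and -0.90 to -0.23 (-1.21 to 0.72), -0.72 (-1.72 to 0.21) and -0.76 (-1.72 to 0.14) among core-positive cells, where their intervals included equal levels.

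The second comparison sets the combination against IL-10/2-Trikine alone, the question of what the antibody adds. Both comparisons share the IL-10/2-Trikine library, so a high or low value there enters them with opposite sign, and they are not independent. Over 2861 measured genes 10.6% were at least 2-fold higher in the combination and 5.07% at least 2-fold lower, with a median of 0.04. Among core-positive cells 208 of 2527 were higher and 115 lower, which is 8.23% and 4.55%.

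Of the 12 measured genes of glycolysis and hypoxia, 8 were at least 2-fold higher in the combination and none lower, beside 10.6% of all genes, with a median of 1.03, or 0.80 among core-positive cells. Pfkp had a log2 ratio of 1.79 (0.83 to 2.90) and 1.78 among core-positive cells. Tpi1 had 30, 4 and 32 UMIs, with a second log2 ratio of 1.77 (0.27 to 3.73), and Pkm, the last kinase of glycolysis, had 46, 13 and 75, with 1.30 (0.44 to 2.27), and 0.80 (-0.12 to 1.82) among core-positive cells. Aldoa, Pgam1 and Ldha, at 0.89, 0.83 and 0.70, were also under 2-fold among those cells, so that 4 of the 8 genes remained past it, of which Eno1 then had too few UMIs to count as measured. Gapdh, at 1134, 793 and 1009 CPM, was the gene of the list with the highest sums and differed by 0.35 (-0.01 to 0.72). The 8 genes past 2-fold, which were Pfkp, Aldoa, Tpi1, Pgk1, Pgam1, Eno1, Pkm and Ldha, had 1 to 19 UMIs under IL-10/2-Trikine, so that their intervals are wide.

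Of 6 measured genes of type 1 dendritic cells, 4 were at least 2-fold higher in the combination, beside 10.6% of all genes. Naaa and Wdfy4 had 59 and 36 UMIs there and none under IL-10/2-Trikine. Set against a floor of 3 UMIs, their combination levels were higher by log2 ratios of at least 3.07 and 2.35. In the combination 9 members held Naaa and 7 held Wdfy4, and 59.3% of the Naaa UMIs were in cells that were not core-positive. Cadm1 had 3 and 29 UMIs, with 79.3% of the latter in 1 cell, and Ifi205, an interferon-inducible DNA sensor family member, had 6 and 67, with a log2 ratio of 2.25 (1.05 to 3.75). Batf3 and Irf8, which set up the type 1 lineage, had log2 ratios of -0.35 (-1.20 to 0.54) and -0.04 (-0.30 to 0.21). Among the members with all 3 chosen genes the list's median was -0.82 instead of 2.15. Among core-positive cells it was 2.08, with 4 of 6 genes higher, beside 8.23% of all genes. There 1 combination cell with 15297 UMIs held 13 of 24 Naaa UMIs and 23 of 29 Cadm1 UMIs, so 2 of the 4 rested largely on that cell.

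Against mono-IL-10, 3 of 5 measured genes of the type 1 list were at least 2-fold lower under IL-10/2-Trikine and none higher, with a median of -1.29. Of all genes 14.5% were lower and 6.66% higher in this comparison, and 5.07% and 10.6% in the second. Among core-positive cells 3 genes of the list were measured, none was 2-fold apart and the median was -0.01. Of 4 measured type 2 genes, 1 was higher and 2 were lower in the first comparison, and 2 were higher and none lower in the second. In core-positive cells 1 of 2 was lower, then 1 of 3 higher. All genes measured in those cells gave 6.02% higher and 6.65% lower, then 8.23% and 4.55%. Sirpa, which binds CD47, was at 197, 74.6 and 207 CPM, with log2 ratios of -1.40 (-2.71 to -0.29) and 1.47 (0.39 to 2.75), and among core-positive cells these were -1.32 and 1.29. Of the mono-IL-10 UMIs of Naaa and Wdfy4, 34 and 21, 88.2% and 61.9% were in cells outside the core-positive set, which left 4 and 8 against none under IL-10/2-Trikine. The first log2 ratio of Ifi205 was -1.29 (-2.85 to 0.02), and -0.90 (-2.56 to 0.57) among core-positive cells. Genes common to dendritic cells had medians of 0.61 and -0.27, with 2 of 8 higher and none lower, then 1 of 9 higher and 1 lower, and among core-positive cells 1 of 7 higher and none lower, then none of 8 higher and 1 lower. Zbtb46, the transcription factor of the conventional lineage, was at 121, 252 and 207 CPM.

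Interferon response genes were mixed. Of 19 measured genes of the interferon gamma response none was at least 2-fold higher and 4 were lower under IL-10/2-Trikine than under mono-IL-10 (Cxcl10, Ciita, Socs1 and Serpina3g), with a median of 0.03. The shares of all genes in this first comparison were 6.66% higher and 14.5% lower. Cxcl10, a chemokine that interferon gamma induces, had 50, 8 and 30 UMIs, and 98% of the first lay outside the core-positive set. Its first log2 ratio was -1.76 (-3.05 to -0.67) over all members and 3.33 (0.43 to 8.80) among core-positive cells, the opposite direction, from 1 and 8 UMIs. Of the 29 Serpina3g UMIs of mono-IL-10, 69% lay outside that set, within which its first log2 ratio of -1.26 (-3.78 to 0.74) had an interval that included equal levels. In the combination 4 of 21 were higher (Iigp1, Igtp, Ciita and Serpina3g) and none lower, with a median of 0.11, beside 10.6% and 5.07% of all genes. Among core-positive cells 3 of 14 measured genes were higher (Cxcl9, Gbp2 and Gbp5) and 2 lower (Ciita and Socs1) in the first comparison. Gbp2 and Gbp5, guanylate-binding proteins, had first log2 ratios of 0.63 (-0.05 to 1.30) and 0.98 (0.34 to 1.63) over all members and of 1.17 (0.35 to 2.04) and 1.03 (0.31 to 1.78) there. In the second comparison none of 17 was then higher and 1, Gbp2, was lower. All genes measured in core-positive cells gave 6.02% higher and 6.65% lower, then 8.23% and 4.55%. Of the 4 genes higher in the combination, Ciita was the 1 whose interval left out equal levels over all members, and among core-positive cells the intervals of all 4 included them. Their log2 ratios were then 0.30, 0.49, 0.88 and 1.40. Of 12 type I interferon response genes 2 were higher and 2 lower in the first comparison (median -0.39), and 1 was higher and 3 lower in the second (median 0.07). Among core-positive cells 2 of 10 were higher and 1 lower, then none higher and 2 lower. Isg15, a ubiquitin-like protein that interferon induces, was at 840, 2145 and 858 CPM, and 1 IL-10/2-Trikine cell held 45.2% of its UMIs. That library's Oasl2 had 85.2% of 27 UMIs in 1 cell. The high values of these 2 genes thus rested largely on single cells.

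Cycling and stress genes gave few values. Of the 22 cell cycle genes 3 were measured, with 2 at least 2-fold lower in the first comparison and 1 higher in the second, and medians of -1.07 and 0.13. In core-positive cells 1 and 2 of them were measured. The 1 of the first comparison, Hmgb2, was higher under IL-10/2-Trikine by a log2 ratio of 1.20 (0.33 to 2.12), the opposite side from the median. Neither of the 2 was 2-fold apart in the second. Of 14 immediate-early and heat shock genes 2 were higher and 4 lower in the first comparison, with a median of 0.02, and of 15 in the second 1 was lower, with a median of -0.15. In core-positive cells 1 of 14 was higher and 2 lower in the first comparison. Beside both lists, 6.66% of all genes were higher and 14.5% lower in the first comparison, and 10.6% and 5.07% in the second. Over core-positive cells these shares were 6.02% and 6.65%, then 8.23% and 4.55%. Fos had 143, 37 and 83 UMIs, and 69.2% of the first were in cells that were not core-positive. Hspa1a had 61, 13 and 27 UMIs in 7, 2 and 9 cells. Dissociation of tissue is known to induce genes of this list, and its part in other differences was not tested.

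**Figure D5:**
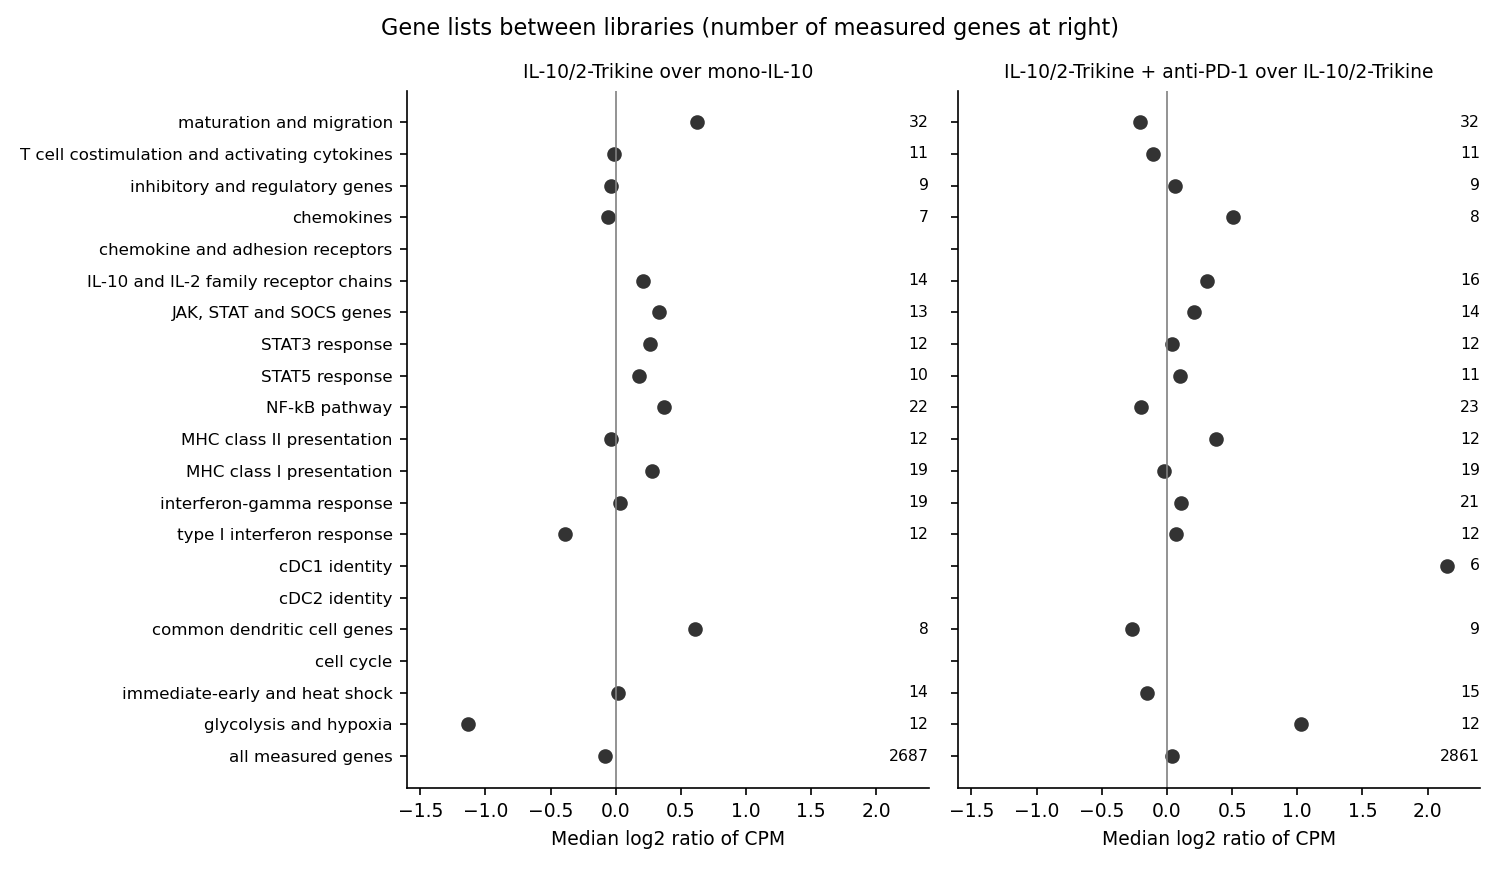
Median log2 ratio of CPM over summed member UMIs for each gene list with at least 6 measured genes, for IL-10/2-Trikine over mono-IL-10 and for the combination over IL-10/2-Trikine, with the numbers measured at the right. Maturation and migration genes stand at 0.62 and -0.21, and glycolysis and hypoxia genes at -1.13 and 1.03. Both comparisons use the IL-10/2-Trikine library.

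By the same rule as above, the genes higher in the combination were S100a10, Gm2a, Gna13, Sdcbp, Pfkp, Ptbp3, Rnh1, Bri3, Sirpa, Plbd1, Picalm and Cpne2, with log2 ratios from 4.86 down to 1.41. S100a10, a partner of annexin A2, had 45, 1 and 68 UMIs in 8, 1 and 20 cells, or 228, 9.33 and 270 CPM. Its log2 ratio was 4.86 (2.33 to 10.18), and 4.63 among core-positive cells. Gm2a, a lysosomal cofactor for ganglioside breakdown, had 49, 3 and 67 UMIs in 9, 3 and 16 cells, with a log2 ratio of 3.25 (1.64 to 5.56). In immature cells S100a10 was at 757, 859 and 804 CPM and Gm2a at 1248, 1299 and 1320 CPM, so that neither was low in immature cells of the IL-10/2-Trikine library. Plbd1 went from 1.44 (0.36 to 2.73) to 0.88 (-0.29 to 2.23) among core-positive cells, and 45.1% of its combination UMIs were outside that set. Mono-IL-10 members stood close to the combination for S100a10 and Gm2a, although 64.4% of their S100a10 UMIs were in cells that were not core-positive.

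Lower in the combination were Adap1, Tbc1d4, Dock8, Enox2, Eps15, Ube2l6, Sema7a, Osbpl8, Ccdc50, Kmt2e, Arih1 and Nostrin, with log2 ratios from -1.49 to -1.03. Sema7a, a membrane semaphorin that engages integrins, was at 294, 550 and 246 CPM, with a log2 ratio of -1.16 (-1.70 to -0.62) and -1.08 among core-positive cells. Dock8, which supports migration of dendritic cells through tight spaces, was at 339, 326 and 131 CPM, with -1.32 (-2.05 to -0.59). Its second log2 ratio was -1.05 (-1.79 to -0.32) among core-positive cells. Its first was -0.05 (-0.69 to 0.56), and -0.52 (-1.16 to 0.10) among core-positive cells, and 1 mono-IL-10 cell held 35.8% of that library's Dock8 UMIs. Kmt2e and Nostrin were on the higher side of the first comparison and on the lower side of the second, and both comparisons use the IL-10/2-Trikine library.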

How the data were processed

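Live CD45+ cells from KP1 tumors were profiled by 10x 3′ single-cell RNA sequencing, with 1 library per group. The deposited matrices hold raw UMI counts per gene and barcode, before any cell filter. The authors made them with Cell Ranger, version 8.0.0 per the file headers, while the methods name another version. The methods name the GRCm39 mouse reference and the labels another build, so no coordinates are given. The libraries held 158570946, 197176873 and 175794959 UMIs over 1425273, 1520583 and 1491573 listed barcodes and 33696 genes, under mono-IL-10, IL-10/2-Trikine and the combination. Genes were named by the symbols in the deposited files.

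Kept barcodes had 200 or more genes and no more than 20% mitochondrial UMIs, as in the study's methods. This removed 72, 35 and 51 barcodes on the mitochondrial limit and left more than the study states. The members and the 20 gene lists were chosen with earlier results of these data known. Member UMIs were summed per library and scaled to counts per 1000000 UMIs (CPM). A gene was measured with at least 20 UMIs over the pair of libraries. With 1 library per group there was no test and no p-value. Intervals were exact binomial for shares, exact Poisson for CPM, exact conditional binomial for ratios of CPM and log-normal for ratios of shares. Ratios against a library at 0 were set against a floor of 3 UMIs in that library. A log2 ratio of a list is the median over its measured genes. Gene names beyond the lists followed a rule: the 12 highest and 12 lowest ratios per comparison under the limits given in the text, and the 15 highest and 10 lowest against immature cells, by the smallest log2 ratio over libraries, at 100 CPM or more in the higher set. One gene that this rule picked is not reported here.

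Doublets were scored with Scrublet (scanpy 1.11.5), which called 2911, 0 and 1336 barcodes. Why it made no call in IL-10/2-Trikine was not tested, and its calls could not be compared between libraries. Doublets were therefore kept and their removal was an alternative. Other alternatives were the filters on barcodes, the thresholds of the definition, the definition applied after thinning to 3000 UMIs, class II barcodes as the denominator of shares, TMM (edgeR 4.0.16, R 4.3.3) and median-of-ratios scaling, the minimum count and the mean over members. Code ran in Python 3.11.15 with numpy 2.4.6, pandas 2.3.3 and scipy 1.17.1, and was tested on simulated data.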

Additional observations from a re-analysis of the deposited data

How the results depend on the processing

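With about 20 cells per library, genes of few UMIs and sums that rest on single cells limit the comparisons, and intervals cover counting error only. No paired analysis was possible because each group is 1 library, and for the same reason no replicate was left out.

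Of the share ratios, 24 of 26 values under alternatives moved by less than their interval, but the first ratio, 0.881, ranged from 0.734 (all 3 genes) to 1.2 (definition after thinning) and so fell on either side of 1. The second, 1.54, was 2.15 (1.22 to 3.81) with class II barcodes as the denominator, an interval that left out 1. With the T cell limit replaced by 10 of 17 markers, a change of 2 choices chosen after seeing the data, they were 2.12 and 0.577, and with that marker requirement and the limit kept they were 1.04 and 1.4. The number of genes at least 2-fold lower under IL-10/2-Trikine than under mono-IL-10, 389, became 155 with a threshold of 10 UMIs, 218 with the other-lineage limits at 2, 245 with doublet calls or the highest 10% of doublet scores removed, and 138 in core-positive cells. Genes higher and lower numbered 80 and 71 with all 3 chosen genes required, 115 and 234 without cycling members, 832 and 1306 with no minimum count, and 69 and 75 with at least 50 UMIs. Leaving out cycling members kept 17, 13 and 21 members. For the combination over IL-10/2-Trikine, 304 and 145 became 60 and 66, 924 and 1357, and 63 and 39 with all 3 genes, no minimum and at least 50 UMIs. TMM gave 211 and 356, then 339 and 125.

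The first maturation median, 0.62, was 0.27 at 10 UMIs, 0.28 with all 3 genes, 0.36 with limits at 2, 0.18 in core-positive cells, 0.36 without cycling members and 0.38 as a mean over members. With all 3 genes the first medians were -0.40 for MHC class I, -0.39 for interferon gamma and -0.15 for glycolysis, and the second was -0.82 for type 1 identity. The second interferon gamma median was -0.08 when the definition was applied after thinning, and the first type I interferon median was 0.23 with no minimum. Specc1 and Sec61g had first log2 ratios of -0.42 and 0.08, and Picalm a second of -0.10, with all 3 genes, which left 8, 6 and 9 members. The cause was not tested in these cases. List medians that had an order-statistic interval stayed inside it in 516 of 528 settings, and named genes were counted as unmoved in 742 of 768. These intervals can be wide, so a median inside one could still shift. Among core-positive cells the first glycolysis median of -1.13 was -0.43, and the second JAK, STAT and SOCS median of 0.21 was -0.26.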
